A study of Mus musculus with 6 samples.

Results

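Mitochondria make ATP by oxidative phosphorylation, in which respiratory chain complexes I to IV pass electrons from NADH and succinate to oxygen, complexes I, III and IV pump protons, and complex V, the ATP synthase, uses the proton gradient to make ATP. Most subunits are encoded in the nucleus, translated in the cytosol and imported, while a small set is encoded in mitochondrial DNA, and the enzymes are assembled from both. In muscle, oxidative phosphorylation is a main source of ATP, and differentiating myoblasts are known to build up mitochondria. The genes described here are 55 nuclear-encoded subunits of complexes I to V that were listed by name, of 11835 genes with a deposited value. All 55 were present, and all 55 passed the filter on low values (a mean of at least 0.5 FPKM over all libraries), as did 11593 genes in all. Cox6a2 passed only through its siCNN3 libraries, with means of 0.0378 FPKM in siNC and 1.49 FPKM in siCNN3. They comprise 26 subunits of complex I, 4 of complex II, 9 of complex III, 12 of complex IV and 4 of complex V, and lie on 18 chromosomes.

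The cells were C2C12, myoblasts of a mouse line that fuses into myotubes after a change to medium with little serum. There were 3 libraries from cells transfected with negative control (NC) siRNA (siNC) and 3 from cells transfected with CNN3 siRNA (siCNN3), all differentiated in horse serum. CNN3 is calponin 3, an actin-binding protein. The labels call all 6 libraries myotubes, whereas the study describes differentiating myoblasts; which siRNA was used for these libraries is not given in the sources used here, and the study's methods give a harvest time for differentiation experiments without saying whether it holds for the sequenced cultures. An siRNA lowers a transcript without removing it, and both groups come from one cell line. Cnn3 was at 62.8, 61.4 and 62.8 FPKM with NC siRNA, compared with 19.0, 39.2 and 25.6 FPKM with CNN3 siRNA, so that the groups did not overlap, with a log2 fold change of -1.19 (limma, adjusted p = 0.0669).

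Values are FPKM (fragments scaled by transcript length and by library size), summed over the transcripts of a gene, and fold changes are on the log2(FPKM + 1) scale. The files hold no read numbers, the lowest values above 0 are down to 1e-06 FPKM and are not multiples of one read, and the depth is therefore unknown. In siNC replicate 1, 2131 transcripts were listed at 0, compared with 978 to 1333 in the other libraries, and this library held the lowest value for 29 of the 55 genes (52.7%), compared with 36.4% of all genes tested. Markers of the labelled cell type were compared between the groups. All 10 tested myotube markers were lower in siCNN3 without overlap of the groups (9.35% of all genes), and 6 of 10 passed the test (0.336% of all genes were called lower, limma with Benjamini-Hochberg adjustment, median log2 fold change -1.44). The number of called myotube markers fell to 1 without siNC replicate 3 or siCNN3 replicate 2 and to 2 without siCNN3 replicate 1. Among them, Acta1, skeletal muscle actin, was at siNC levels of 24.6, 33.8 and 26.9 FPKM and siCNN3 levels of 5.37, 5.35 and 6.43 FPKM. The adult muscle creatine kinase Ckm was at a mean of 0.680 FPKM in siNC and 0.0253 FPKM in siCNN3. Markers of dividing or undifferentiated myoblasts had 0 of 5 called (2.06% of all genes) and 1 higher at an unadjusted p under 0.05 (9.94% of all genes, limma, median log2 fold change -0.01). Mean siNC levels of myotube markers ran from 0.680 FPKM (Ckm) to 117.2 FPKM (Des), with Myog at 2.18 FPKM and no value for Actc1. Those of dividing or undifferentiated myoblasts ran from 4.68 FPKM (Myf5) to 109.7 FPKM (Top2a, 98.1 FPKM in siCNN3). Whether the cells were mainly myotubes was not tested. In bulk RNA, fewer cells of a type and less RNA per cell cannot be told apart, and p-values measure only the spread between these libraries, which may be technical.

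Transcripts of the nuclear-encoded subunits were abundant and differed little between siCNN3 and siNC. Their mean levels ran from 0.765 FPKM (Cox6a2) to 390.3 FPKM (Atp5b, the catalytic beta subunit of ATP synthase), with a median of 67.1 FPKM, compared with a median of 9.91 FPKM over all genes tested. Summed over the 55 genes, the level was 4748, 5290 and 5160 FPKM in siNC and 5120, 5023 and 5058 FPKM in siCNN3, which places all siCNN3 sums between the lowest and the highest siNC sum. The siCNN3 mean was 100.0% of the siNC mean. As a share of all FPKM of a library the sum was 1.47%, 1.51% and 1.49% in siNC and 1.44%, 1.43% and 1.44% in siCNN3. On this scale every siCNN3 library lay below every siNC library, by a small difference. Within a gene, the highest library was less than 1.5 times the lowest for 37 of 55 genes and less than 2 times for 52 of 55.

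None of the 55 genes passed the test in either direction (adjusted p under 0.05, limma), compared with 2.06% of all genes, of which 1.73% were called higher and 0.336% lower in siCNN3. At an unadjusted p under 0.05, 5 were higher and 2 lower, that is 7 of 55, compared with 9.94% higher, 6.14% lower and 16.1% in all among all genes. The groups did not overlap for 12 of 55 genes, 7 of them higher and 5 lower in siCNN3, compared with 13.8%, 9.35% and 23.1% of all genes. Cox6a2, which passed the filter only through siCNN3, where it was high, is 1 of the 5 and 1 of the 7 higher genes, and nothing is read from its place in these counts. Without it, 4 genes were higher at an unadjusted p under 0.05 and 6 higher without overlap. These shares were near or below the background. The median log2 fold change was 0.05, compared with 0.03 over all genes, and it changed sign to -0.06 with quantile normalization, to -0.04 with length and GC trends removed and to -0.01 without siNC replicate 1. Under these 3 settings 0 of 55 genes were called (limma), and 10, 11 and 6 had an unadjusted p under 0.05, compared with 19.0%, 17.9% and 15.8% of all genes. The median over all genes changed sign under the same 3 settings, to -0.04, -0.04 and -0.02. The values were narrow: the median standard error was 0.134 (0.185 over all genes), and the 95% interval lay inside a 1.5-fold change either way for 38 of 55 genes and inside a 2-fold change for 52 of 55, compared with 36.8% and 78.4% of all genes. For most of these subunits a change of more than 1.5-fold was thus outside the interval. Intervals were similarly narrow for 26 nuclear-encoded subunits outside the 55 (median standard error 0.125, 19 inside 1.5-fold). The same held for 14 citric acid cycle enzymes (0.126, 10 inside 1.5-fold). Without siCNN3 replicate 3, 2 of the 55 genes were called higher (Uqcrq and Cox6a2) and 1 lower (Uqcrh, limma). At that setting 443 genes were called higher and 159 lower of 11611 tested. Without any of the other 5 libraries 0 of the 55 genes were called (limma). Nothing is read from this call of Cox6a2 either.

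**Figure D1:**
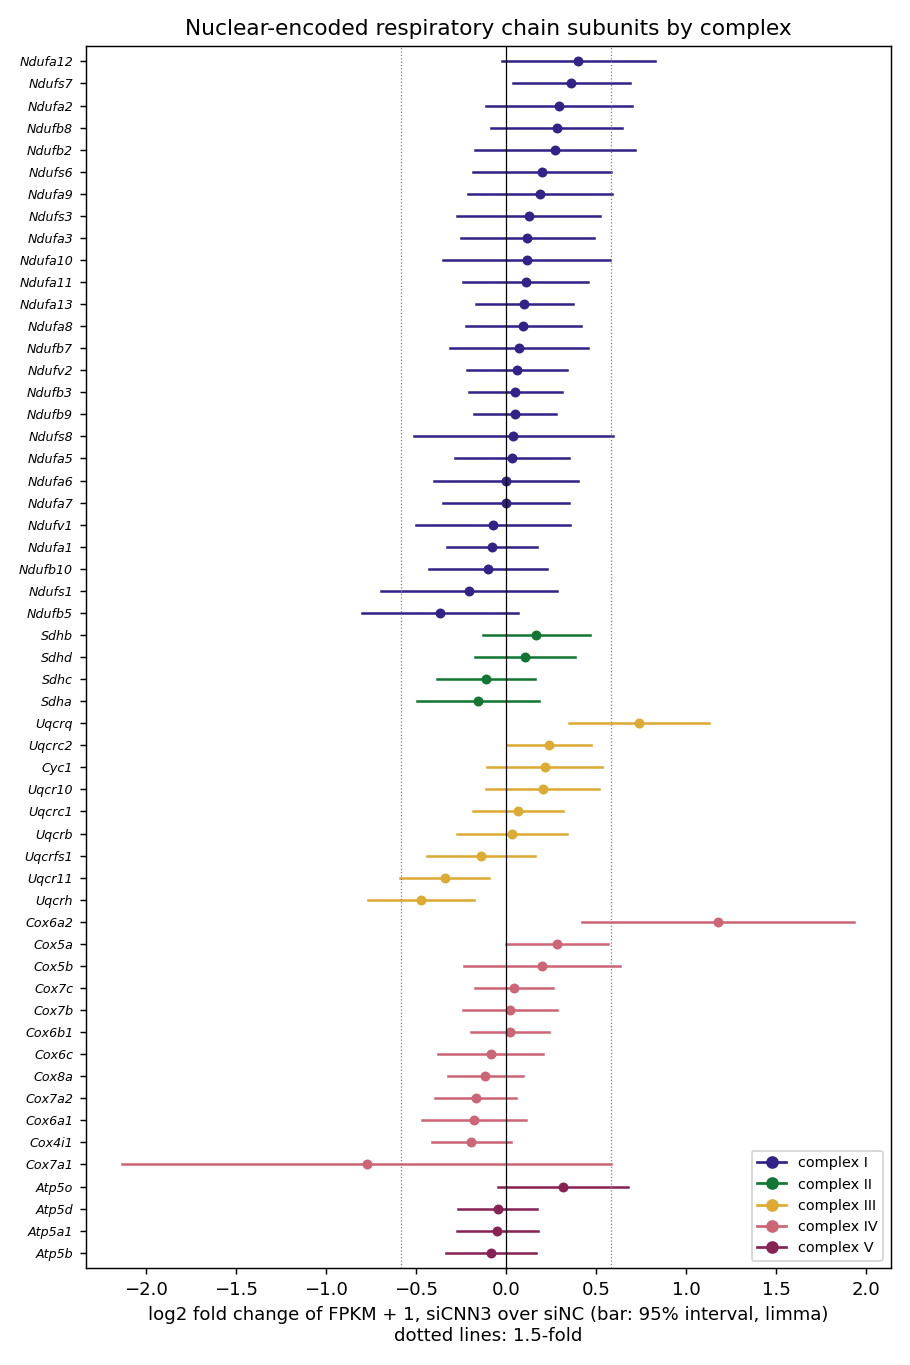
Log2 fold change of FPKM + 1 (siCNN3 over siNC, x axis) of each of the 55 subunits, grouped by complex, with bars for the 95% interval of the limma fit and dotted lines at 1.5-fold. Most intervals include 0, and those of Uqcrq, Uqcrh, Uqcr11, Uqcrc2, Ndufs7 and Cox5a do not. Cox6a2 is drawn but passed the filter only through siCNN3, and its position is set by the pseudocount.

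Complex I is the NADH dehydrogenase, through which electrons from NADH enter the chain. In 20 of its 26 subunits the log2 fold change was above 0, compared with 6258 of all 11593 genes, with a median of 0.08 (-0.02 with quantile normalization). Of the 26, 0 were called (limma), with 1 at an unadjusted p under 0.05, compared with 2.06% and 16.1% of all genes. The groups did not overlap for 3 with siCNN3 higher and 0 with siCNN3 lower, compared with 13.8% and 9.35% of all genes. The summed level was 1424, 1630 and 1575 FPKM in siNC and 1632, 1585 and 1653 FPKM in siCNN3, with replicate 1 the lowest in siNC, and the siCNN3 mean was 105.2% of the siNC mean. Without siNC replicate 1, the median was 0.01. The 6 core subunits, most of which carry the flavin and iron-sulfur centres, had a median of 0.05 and the 20 accessory subunits a median of 0.10.

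Ndufs7, a core subunit that passes electrons from the last iron-sulfur cluster to ubiquinone (chromosome 10, 80249121 to 80256794, GRCm38), was at 38.7, 36.9 and 32.4 FPKM across siNC libraries and 42.2, 44.0 and 53.8 FPKM across siCNN3 libraries. Its groups did not overlap, and the log2 fold change was 0.36 (95% interval 0.04 to 0.69, adjusted p = 0.266, limma). The accessory subunit Ndufa12 was at 52.3, 78.9 and 79.0 FPKM with NC siRNA, compared with 97.9, 85.5 and 91.0 FPKM with CNN3 siRNA (log2 fold change 0.40, adjusted p = 0.331, limma), again with no overlap and with siNC replicate 1 far below the rest. Without that library the log2 fold change of Ndufa12 was 0.21. Ndufb8, named after its values were seen as the other complex I subunit without overlap, was at siNC levels of 45.8, 62.0 and 62.9 FPKM and siCNN3 levels of 74.8, 68.5 and 63.2 FPKM. Ndufa2, an accessory subunit, was at 51.8, 80.0 and 69.3 FPKM across siNC libraries and 85.1, 75.1 and 83.3 FPKM across siCNN3 libraries, with overlapping groups.

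At the other end stood Ndufb5, an accessory subunit of the membrane arm, which was at 40.1, 54.3 and 59.7 FPKM with NC siRNA, compared with 33.7, 39.8 and 44.7 FPKM with CNN3 siRNA (log2 fold change -0.36, adjusted p = 0.381, limma). Its exons share 616 bases with Mrpl47 on the opposite strand, a gene at a mean of 9.32 FPKM, and whether the reads were counted by strand is not given in the sources used here. Ndufs1, the largest iron-sulfur subunit of the NADH-oxidizing module, was at siNC levels of 22.8, 36.2 and 28.0 FPKM and siCNN3 levels of 28.1, 26.3 and 20.0 FPKM, and Ndufb10 had a log2 fold change of -0.10. That of Ndufb10 changed sign to 0.02 without siNC replicate 2. Levels within complex I spanned from 8.19 FPKM for Ndufb2 to 216.3 FPKM for Ndufb9. Ndufb9 was nearly level, at 217.1, 213.2 and 207.0 FPKM across siNC libraries and 217.4, 205.7 and 237.7 FPKM across siCNN3 libraries, with a 95% interval of -0.18 to 0.28 on the log2 scale.

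Complex II, succinate dehydrogenase, links the citric acid cycle to the chain and is the one complex whose subunits are all encoded in the nucleus. None of its 4 genes was called or had an unadjusted p under 0.05 (limma, compared with 2.06% and 16.1% of all genes), the median log2 fold change was -0.00, and all 4 intervals lay inside a 1.5-fold change. The flavoprotein Sdha, which oxidizes succinate, was at 46.2, 61.0 and 55.8 FPKM with NC siRNA, compared with 50.8, 51.5 and 43.2 FPKM with CNN3 siRNA (log2 fold change -0.16). The iron-sulfur subunit Sdhb was at siNC levels of 43.8, 53.3 and 43.2 FPKM and siCNN3 levels of 55.8, 52.3 and 49.2 FPKM (log2 fold change 0.17). Both pairs of groups overlapped. The membrane anchors Sdhc and Sdhd had log2 fold changes of -0.11 and 0.11, with groups that also overlapped.

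Complex III is the cytochrome bc1 complex, which carries electrons from ubiquinol to cytochrome c. Of its 9 genes, 0 were called, compared with 2.06% of all genes (limma). At an unadjusted p under 0.05, 2 were higher and 2 lower, compared with 9.94% and 6.14% of all genes. The groups did not overlap for 2 with siCNN3 higher and 2 with siCNN3 lower, compared with 13.8% and 9.35% of all genes. Uqcrq, a small subunit of the complex (chromosome 11, 53427922 to 53430831), was at 44.0, 52.8 and 52.5 FPKM across siNC libraries and 96.0, 89.9 and 67.1 FPKM across siCNN3 libraries. Every siCNN3 library was above every siNC library, and the siCNN3 mean was 169.5% of the siNC mean (84.3 ± 15.2 against 49.8 ± 4.98 FPKM, SD, n = 3). The log2 fold change was 0.74 with a 95% interval of 0.35 to 1.13 and an adjusted p of 0.0818 (limma), so that it was not called. When 1 library was left out, it was called only without siCNN3 replicate 3, at 0.89 (adjusted p = 0.0196, limma), and without any of the other 5 it was 0.64 to 0.78 with adjusted p from 0.159 to 0.297. Of its 3 deposited transcripts, the 2 most abundant had separate groups. The 405-nucleotide transcript was at 20.6, 19.9 and 21.4 FPKM with NC siRNA, compared with 39.1, 35.5 and 28.6 FPKM with CNN3 siRNA, and the 1521-nucleotide transcript was at siNC levels of 23.0, 31.9 and 29.7 FPKM and siCNN3 levels of 54.7, 52.5 and 37.5 FPKM. In both of these, siCNN3 replicate 3 was the lowest of the siCNN3 libraries. The 504-nucleotide transcript was at siNC levels of 0.389, 0.972 and 1.37 FPKM and siCNN3 levels of 2.18, 1.87 and 0.943 FPKM, with overlapping groups.

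Uqcrh, the hinge protein of the complex (chromosome 4, 116066965 to 116075071), showed the opposite order, at 226.4, 199.4 and 225.7 FPKM across siNC libraries and 141.9, 148.4 and 179.9 FPKM across siCNN3 libraries. The siCNN3 mean was 72.2% of the siNC mean (156.7 ± 20.3 against 217.2 ± 15.4 FPKM, SD, n = 3), with no overlap, a log2 fold change of -0.47 (95% interval -0.77 to -0.18) and an adjusted p of 0.1198 (limma). Without siCNN3 replicate 3, which lay nearest to siNC here as it did for Uqcrq, the log2 fold change was -0.58 with an adjusted p of 0.0366 (limma), and without any of the other 5 libraries it was -0.53 to -0.41 with adjusted p from 0.179 to 0.411. Uqcr11, another small subunit (chromosome 10, 80402997 to 80406830), was at 152.7, 171.1 and 154.0 FPKM with NC siRNA, compared with 124.7, 134.8 and 117.1 FPKM with CNN3 siRNA, also without overlap (log2 fold change -0.34, adjusted p = 0.170, limma). Uqcrq, Uqcrh and Uqcr11 have no near-identical copy (at least 95% identity over at least 200 bases) and no exon shared with another gene in the annotation used.

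The remaining subunits of complex III lay close to siNC. The matrix core protein Uqcrc2 was at siNC levels of 53.8, 55.9 and 57.1 FPKM and siCNN3 levels of 63.0, 65.2 and 69.0 FPKM, a small difference without overlap (log2 fold change 0.24, adjusted p = 0.304, limma). Its partner Uqcrc1 had a log2 fold change of 0.07, the Rieske iron-sulfur protein Uqcrfs1 one of -0.14, and cytochrome c1 (Cyc1) one of 0.21, each with overlapping groups. Uqcrb and Uqcr10 were at 0.03 and 0.20 on the same scale. The median over all 9 genes was 0.07, and their summed level in siCNN3 was 98.5% of that in siNC.

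**Figure D2:**
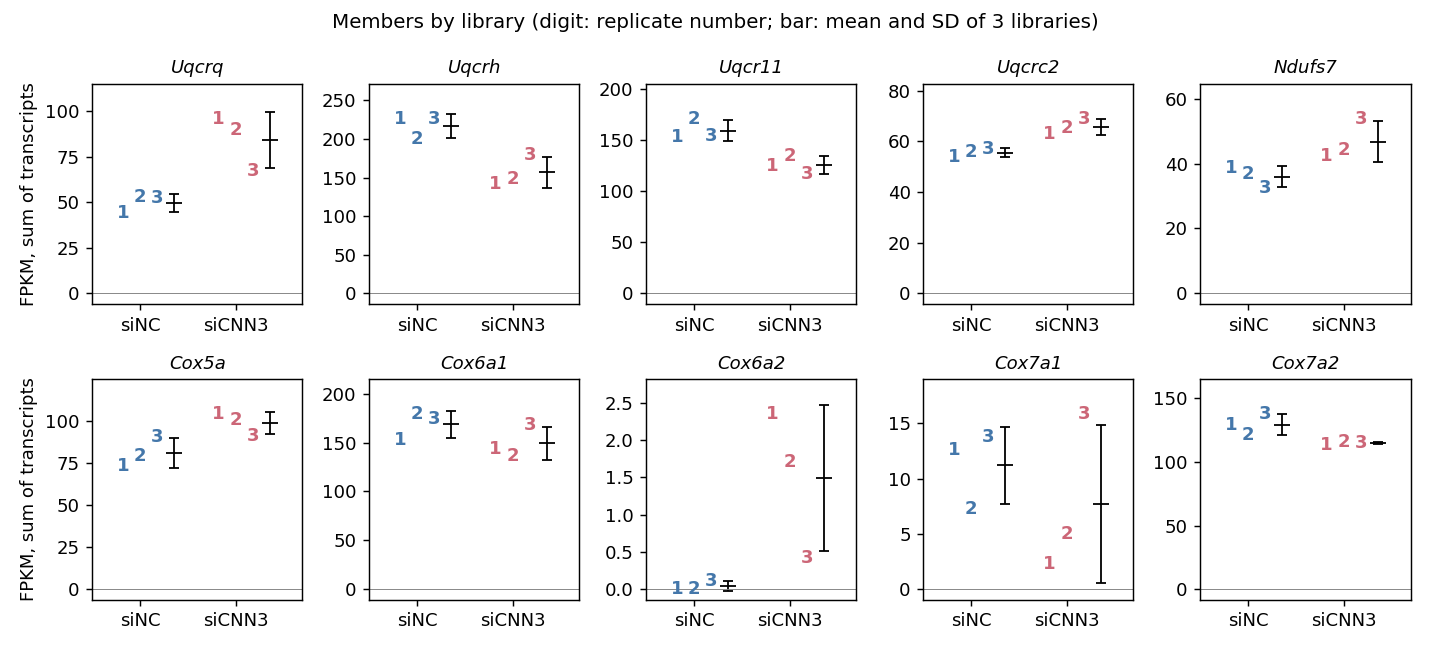
FPKM (y axis, starting at 0) of 10 subunits in each library, with digits for the replicate number and bars for the mean and SD of 3 libraries. The groups are separate for Uqcrq, Uqcrh, Uqcr11, Uqcrc2, Ndufs7, Cox5a, Cox6a2 and Cox7a2, and they overlap for Cox6a1 and Cox7a1.

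Complex IV, cytochrome c oxidase, reduces oxygen and includes subunits with a ubiquitous and a muscle isoform, of which the muscle isoform is known to replace the other in mature heart and skeletal muscle. For subunit 6a, the muscle isoform Cox6a2 (chromosome 7, 128205435 to 128206387) was listed at 0 in siNC replicates 1 and 2 and at 0.113 FPKM in replicate 3, and it was at 2.34, 1.71 and 0.422 FPKM in siCNN3. All siCNN3 values were above all siNC values, although near the bottom of the measured range. The ubiquitous isoform Cox6a1 was at 152.8, 178.9 and 174.3 FPKM across siNC libraries and 143.0, 136.5 and 168.4 FPKM across siCNN3 libraries. Cox6a2 therefore made up 0%, 0% and 0.0650% of the summed isoforms in siNC and 1.61%, 1.24% and 0.250% in siCNN3. The difference in Cox6a2 was 1.18 on the log2(FPKM + 1) scale (adjusted p = 0.129, limma), a value set by the pseudocount, since it was 3.36 with a pseudocount of 0.1. Cox6a2 was tested only because its siCNN3 libraries lifted its mean over the filter, and without siCNN3 replicate 1 it no longer passed and had no test. The difference in the log2 ratio of Cox6a2 to Cox6a1, 1.36 with a pseudocount of 1 and 3.54 with 0.1, is given for the same reason without a test.

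For subunit 7a, the muscle isoform Cox7a1 (chromosome 7, 30184144 to 30186078) was at 12.6, 7.25 and 13.8 FPKM with NC siRNA, compared with 2.29, 5.01 and 15.8 FPKM with CNN3 siRNA. The siCNN3 libraries thus held both the highest and the lowest values, and the log2 fold change of -0.77 had a 95% interval of -2.13 to 0.58 (adjusted p = 0.557, limma). The ubiquitous Cox7a2 was at siNC levels of 129.3, 121.0 and 137.3 FPKM and siCNN3 levels of 113.6, 115.7 and 115.1 FPKM, without overlap (log2 fold change -0.17, adjusted p = 0.436, limma). Cox7a1 was 8.89%, 5.66% and 9.13% of the summed isoforms in siNC and 1.98%, 4.15% and 12.1% in siCNN3. The log2 ratio of Cox7a1 to Cox7a2 differed by -0.61 in siCNN3 (two-sided exact permutation p = 0.6, with 0.1 the smallest p that 3 libraries against 3 allow). The difference was -0.08 without siCNN3 replicate 1 and -1.24 without siCNN3 replicate 3. In siCNN3 replicate 3, where Cox7a1 was highest, Cox6a2 was the lowest of the group.

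Other complex IV subunits were expressed at high and even levels, up to 241.1 FPKM for Cox8a. Cox5a was at 73.2, 79.3 and 90.5 FPKM across siNC libraries and 103.8, 100.5 and 91.2 FPKM across siCNN3 libraries, with groups that just failed to overlap (log2 fold change 0.28, adjusted p = 0.309, limma). Cox4i1, the ubiquitous isoform of subunit 4, was at 199.9, 184.9 and 190.0 FPKM with NC siRNA, compared with 170.4, 157.9 and 174.3 FPKM with CNN3 siRNA (log2 fold change -0.19). Cox8a was at siNC levels of 238.9, 261.4 and 252.2 FPKM and siCNN3 levels of 225.6, 234.8 and 233.5 FPKM (log2 fold change -0.12). The last 2 pairs of groups also did not overlap, by differences of under 1.5-fold. Of the 12 complex IV genes, 0 were called, compared with 2.06% of all genes (limma). At an unadjusted p under 0.05, 2 were higher and 0 lower, compared with 9.94% and 6.14%. The groups did not overlap for 2 with siCNN3 higher and 3 with siCNN3 lower, compared with 13.8% and 9.35%. Nothing is read from the place of Cox6a2 among the higher genes. Cox5b, at 61.0, 93.5 and 77.2 FPKM across siNC libraries and 85.0, 101.5 and 77.3 FPKM across siCNN3 libraries, shares 390 bases at 99.2% identity with Gm11273, which was itself listed at a mean of 12.7 FPKM, so that reads may be split between them. Cox6b1, Cox7b and Cox7c had log2 fold changes of 0.02, 0.02 and 0.04.

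Complex V was represented by 4 genes of its soluble F1 part and stalks, of which 0 were called and 0 had an unadjusted p under 0.05 (limma), compared with 2.06% and 16.1% of all genes. Atp5b was at 359.2, 430.2 and 417.4 FPKM with NC siRNA, compared with 394.0, 385.3 and 355.9 FPKM with CNN3 siRNA, with overlapping groups and a 95% interval of -0.33 to 0.16 on the log2 scale. The alpha subunit Atp5a1 and the delta subunit Atp5d had log2 fold changes of -0.05 and -0.05. The oligomycin sensitivity conferring protein Atp5o, which joins the F1 part to the peripheral stalk, stood apart from them at siNC levels of 65.3, 85.9 and 80.6 FPKM and siCNN3 levels of 85.8, 92.4 and 111.1 FPKM (log2 fold change 0.32, adjusted p = 0.362, limma). The highest siNC value lay just above the lowest siCNN3 value. Of the 55 genes, 14 matched another gene by the same definition, and for 4 of these (Ndufa13, Uqcrc2, Ndufb9 and Ndufb5) the match was a gene that overlaps the member's own exons. The other 10 have a near-identical copy elsewhere, and Atp5o is one of them, with the pseudogene Gm5436 at 97.0% identity over 643 bases. Ndufa12, Ndufb3, Ndufs3, Ndufs6, Uqcrb, Cox5b, Cox6c, Cox7b and Cox7c are the others, and the values of all 14 are uncertain by the reads that could be shared.

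Promoters of nuclear-encoded subunits are known for sites of NRF1, of ETS family factors such as GABP, and of YY1. Windows from 250 bases before to 50 bases after the RefSeq transcription start (GRCm38.p6) were matched for 43 of the 55 genes and searched on both strands. The NRF1 motif GCGCATGC was found in 7 of 43 (16.3%), compared with 3.05% of the windows of all 27025 genes. The ETS core CCGGAA was found in 17 of 43 (39.5%, all genes 16.7%), its longer form CCGGAAGT, which contains the core, in 4 of 43 (9.30%, all genes 4.31%), and the YY1 motif AAGATGGC in 5 of 43 (11.6%, all genes 3.19%). Among motifs read by muscle factors, the E-box CAGCTG was in 4 of 43 (9.30%, all genes 18.3%), and the MEF2 motif CTAAAAATA in 0 of 43 (all genes 0.588%). The CCAAT box CCAAT was in 16 of 43 (37.2%, all genes 41.1%). A match of letters is a description and not a site in use.

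Uqcrh, Uqcr11, Cox8a and Ndufs3 are the 4 genes with CCGGAAGT. The log2 fold changes of the first 3 were -0.47, -0.34 and -0.12, and that of Ndufs3, a core subunit of complex I, was 0.13. Upstream stretches of Uqcrh and Uqcr11 that end at the base before the RefSeq start are shown because these were the complex III members whose groups were separate with siCNN3 lower. Other matches are left in lower case. They are the CCAAT box at position -52 in Uqcrh, and the ETS core at -32 and the NRF1 motif at -4 in Uqcr11. The NRF1 motif runs past the end of the stretch. The stretches lie at chr4:116075071-116075220 and chr10:80406822-80406971, both on the minus strand, with capitals for CCGGAAGT or its reverse complement, at positions -11 and -66 from the start:
Uqcrh: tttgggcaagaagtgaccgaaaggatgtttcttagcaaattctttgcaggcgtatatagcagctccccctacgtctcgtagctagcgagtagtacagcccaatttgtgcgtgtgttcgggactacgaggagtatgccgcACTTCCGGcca
Uqcr11: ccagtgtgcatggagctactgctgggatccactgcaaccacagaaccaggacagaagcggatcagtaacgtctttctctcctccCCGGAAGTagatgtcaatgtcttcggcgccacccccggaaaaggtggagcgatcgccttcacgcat

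Upstream stretches of 3 isoform genes of complex IV, of which Cox7a1 alone is a muscle form, are also shown. No window was matched for Cox6a2 or Uqcrq. Cox6a1 (chr5:115348959-115349138, minus strand) has the NRF1 motif on both strands, overlapping, from position -162, in capitals, and it also has the CCAAT box at position -74 and the ETS core in reverse at position -15, both left in lower case. Cox7a2 (chr9:79759854-79760033, minus strand) has the ETS core in reverse at position -172, in capitals. Cox7a1, the muscle isoform (chr7:30184021-30184170, plus strand), has neither the NRF1 motif nor the ETS core in its window and has the CCAAT box in reverse at positions -137 and -74, in capitals:
Cox6a1: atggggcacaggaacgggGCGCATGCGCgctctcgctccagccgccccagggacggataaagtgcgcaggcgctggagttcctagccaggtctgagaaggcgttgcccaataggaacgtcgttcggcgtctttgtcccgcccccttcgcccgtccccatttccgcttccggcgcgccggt
Cox7a2: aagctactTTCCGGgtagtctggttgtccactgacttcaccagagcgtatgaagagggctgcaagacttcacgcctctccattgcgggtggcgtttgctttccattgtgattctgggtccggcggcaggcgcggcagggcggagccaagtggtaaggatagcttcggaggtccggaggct
Cox7a1: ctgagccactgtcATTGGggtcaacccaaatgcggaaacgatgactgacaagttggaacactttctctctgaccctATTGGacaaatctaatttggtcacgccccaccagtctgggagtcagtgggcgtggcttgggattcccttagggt

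Values of single transcripts were less stable than the gene sums. The 55 genes have 93 deposited transcripts, with 32 genes having 1 and 23 having 2 to 4. Cox6c, a complex IV subunit, was at 216.9, 211.0 and 170.8 FPKM across siNC libraries and 201.2, 179.6 and 181.1 FPKM across siCNN3 libraries, yet its 738-nucleotide transcript was at 75.0, 80.1 and 1.26 FPKM with NC siRNA, compared with 67.2, 0.80 and 0.76 FPKM with CNN3 siRNA. The 503-nucleotide transcript of Cox6c was higher in the same 3 libraries in which the longer one was near 0. Ndufv1, the complex I subunit that binds NADH, had a transcript listed at 0 in those same 3 libraries: its 1436-nucleotide transcript was at 14.3 FPKM in siNC replicate 1, 20.4 FPKM in siNC replicate 2 and 15.7 FPKM in siCNN3 replicate 1, and it was listed at 0 in the other 3. The gene sum of Ndufv1 was at siNC levels of 23.4, 34.3 and 28.0 FPKM and siCNN3 levels of 28.7, 29.7 and 22.5 FPKM, with a log2 fold change of -0.07, which became 0.45 when the transcript with the highest mean was used alone. For Ndufs1, the 2661-nucleotide transcript was at 1.16 FPKM in siNC replicate 2 and 1.94 FPKM in siCNN3 replicate 1, and at 8.99 to 14.6 FPKM in the other 4 libraries. None of these differences between transcripts followed the groups.

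**Figure D3:**
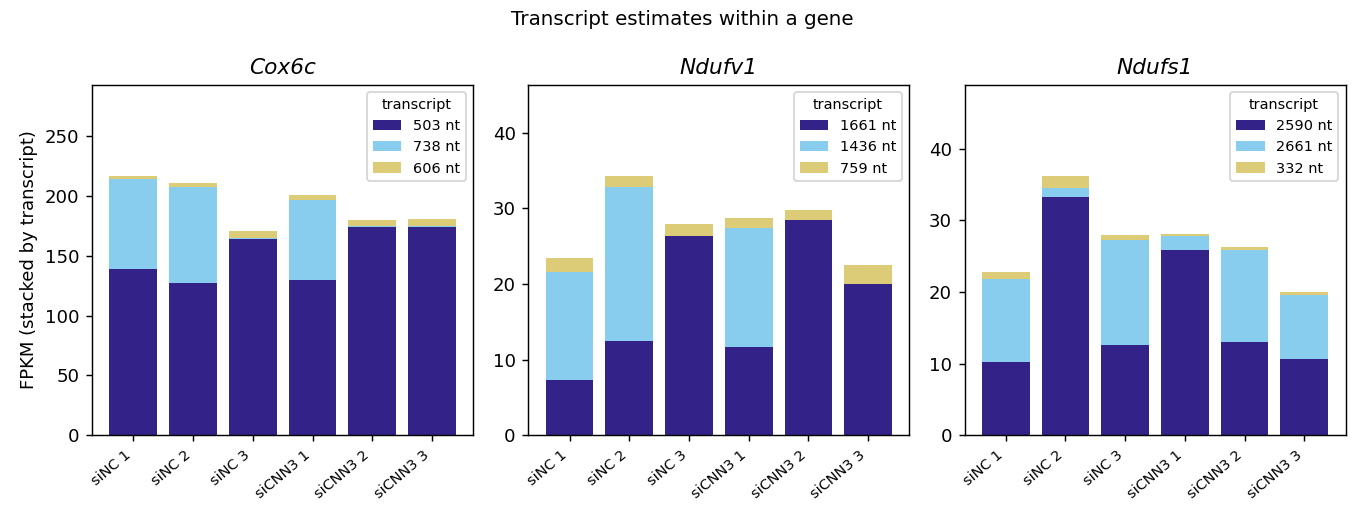
FPKM of the transcripts (stacked bars from 0, colours by transcript length in nucleotides) of Cox6c, Ndufv1 and Ndufs1 in each library. The split between transcripts changes from library to library within both groups, while the height of the stacks varies less.

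The subunits encoded in mitochondrial DNA are translated inside the organelle and join the nuclear-encoded ones in complexes I, III, IV and V. All 13 were lower in siCNN3 without overlap of the groups, compared with 5 of the 55 nuclear-encoded genes and with 9.35% of all genes, and the median log2 fold change was -0.70 (range over the genes -0.99 to -0.38). At an unadjusted p under 0.05, 13 of 13 were lower, compared with 6.14% of all genes (limma). After adjustment 1 of 13 was called lower, compared with 0.336% of all genes. The gene called was mt-Nd1, a core subunit of complex I, at 2004, 2735 and 2467 FPKM across siNC libraries and 1473, 1386 and 1098 FPKM across siCNN3 libraries (log2 fold change -0.86, adjusted p = 0.0494, limma). The 13 genes are cut from shared precursor transcripts and are not independent of each other. Their summed level was 19118, 24216 and 21149 FPKM in siNC and 15494, 14983 and 12579 FPKM in siCNN3, and its ratio to the sum of the 55 nuclear-encoded genes was 4.03, 4.58 and 4.10 in siNC and 3.03, 2.98 and 2.49 in siCNN3. The groups did not overlap in this ratio, which is formed within a library. No test of the difference between the sets was made.

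By complex, the mitochondrially encoded subunits had median log2 fold changes of -0.79 in complex I (7 genes, nuclear-encoded subunits 0.08), -0.88 in complex III (1 gene, nuclear-encoded 0.07), -0.39 in complex IV (3 genes, nuclear-encoded -0.03) and -0.45 in complex V (2 genes, nuclear-encoded -0.05). The median over the 13 genes stayed below 0 in all alternatives run, between -1.04 and -0.53. The call of mt-Nd1 rested on the settings: the number of called genes among the 13 was 0 under 12 of the 16 alternatives, 1 with median-of-ratios scaling, 2 with a filter at 5 FPKM or without siCNN3 replicate 3, and 8 with the trends of length and GC content removed. The myotube markers were also lower in siCNN3, with summed levels of 183.7, 216.6 and 203.7 FPKM in siNC and 103.6, 103.7 and 124.4 FPKM in siCNN3. Within siCNN3, replicate 3 had the highest sum of myotube markers and the lowest sum of mitochondrially encoded genes. Most of the marker sum was Des, which was not called, at 86.5, 84.3 and 103.2 FPKM in siCNN3. Single markers did not share one order: in siCNN3 replicate 3, Acta1 was the highest of its group (6.43 FPKM) and Myog the lowest (0.485 FPKM). The part of the myotube markers in the result was not tested.

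**Figure D4:**
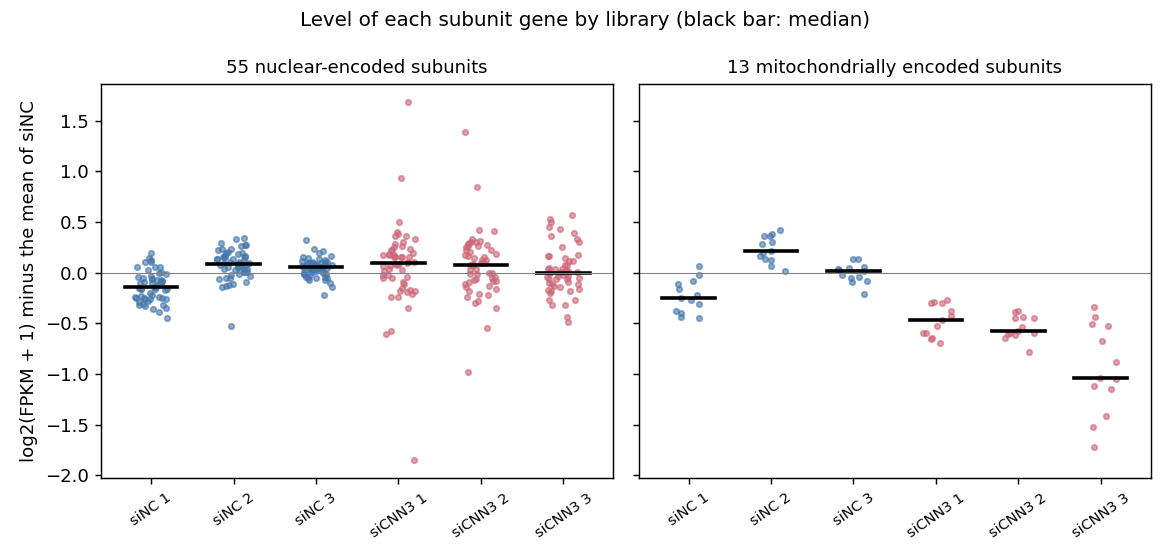
Log2(FPKM + 1) of each subunit gene minus its siNC mean (y axis) in each library, for the 55 nuclear-encoded subunits (left) and the 13 mitochondrially encoded subunits (right), with bars for the median. The nuclear-encoded medians lie between -0.14 (siNC replicate 1) and 0.10 (siCNN3 replicate 1), whereas the mitochondrially encoded medians lie between -0.25 and 0.21 in siNC and between -1.04 and -0.47 in siCNN3.

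Other genes of the pathway were read from lists of names. Of 26 tested nuclear-encoded subunits outside the 55, 0 were called (2.06% of all genes, limma), 2 were higher and 3 lower at an unadjusted p under 0.05 (9.94% and 6.14% of all genes), and the median log2 fold change was -0.02. Among these, Cycs, the mobile carrier cytochrome c, was at siNC levels of 24.97, 39.5 and 34.6 FPKM and siCNN3 levels of 68.6, 65.1 and 38.0 FPKM, with overlapping groups (log2 fold change 0.75, adjusted p = 0.231, limma). As for Uqcrq, siCNN3 replicate 3 lay nearest to siNC.

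Of 46 assembly factors, which insert cofactors or join subunits, 1 was called higher and 0 lower, compared with 1.73% and 0.336% of all genes (limma). Their median log2 fold change was 0.12. At an unadjusted p under 0.05, 9 were higher and 1 lower, compared with 9.94% and 6.14% of all genes, and the groups did not overlap for 10 with siCNN3 higher and 1 with siCNN3 lower, compared with 13.8% and 9.35%. The gene called was Cox18, which inserts a mitochondrially encoded subunit of complex IV into the membrane, at 3.81, 5.09 and 4.09 FPKM across siNC libraries and 11.6, 13.0 and 8.24 FPKM across siCNN3 libraries (log2 fold change 1.15, adjusted p = 0.0430, limma). The list had 0 called genes when any of siNC replicates 1 to 3 or siCNN3 replicates 1 and 2 was left out, and 2 without siCNN3 replicate 3. Ndufaf4, an assembly factor of complex I named after its values were seen, was at 2.45, 2.38 and 0.928 FPKM with NC siRNA, compared with 7.09, 7.21 and 4.495 FPKM with CNN3 siRNA, without overlap (log2 fold change 1.34, adjusted p = 0.0760, limma). Among 15 tested regulators of mitochondrial biogenesis, 0 were called (2.06% of all genes, limma), with 0 higher and 1 lower at an unadjusted p under 0.05 (9.94% and 6.14% of all genes). Ppargc1a, the coactivator that drives mitochondrial biogenesis in muscle, was at 0.592, 0.497 and 0.652 FPKM with NC siRNA, compared with 0.709, 1.00 and 1.00 FPKM with CNN3 siRNA, and is named after its values were seen. Polg, the mitochondrial DNA polymerase, was at siNC levels of 2.31, 3.35 and 3.72 FPKM and siCNN3 levels of 1.495, 1.448 and 1.467 FPKM without overlap (log2 fold change -0.72, adjusted p = 0.106, limma). Polrmt, the mitochondrial RNA polymerase, was at 1.81, 5.72 and 4.21 FPKM across siNC libraries and 4.098, 1.084 and 1.398 FPKM across siCNN3 libraries, with overlapping groups (adjusted p = 0.519, limma). Of 14 citric acid cycle enzymes 0 were called (2.06% of all genes, limma), with 0 higher and 1 lower at an unadjusted p under 0.05 (9.94% and 6.14% of all genes), and the median was -0.05. That gene was Ogdh, of the oxoglutarate dehydrogenase complex, at 34.0, 37.5 and 35.1 FPKM with NC siRNA, compared with 27.5, 27.4 and 25.6 FPKM with CNN3 siRNA (adjusted p = 0.130, limma).

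**Figure D5:**
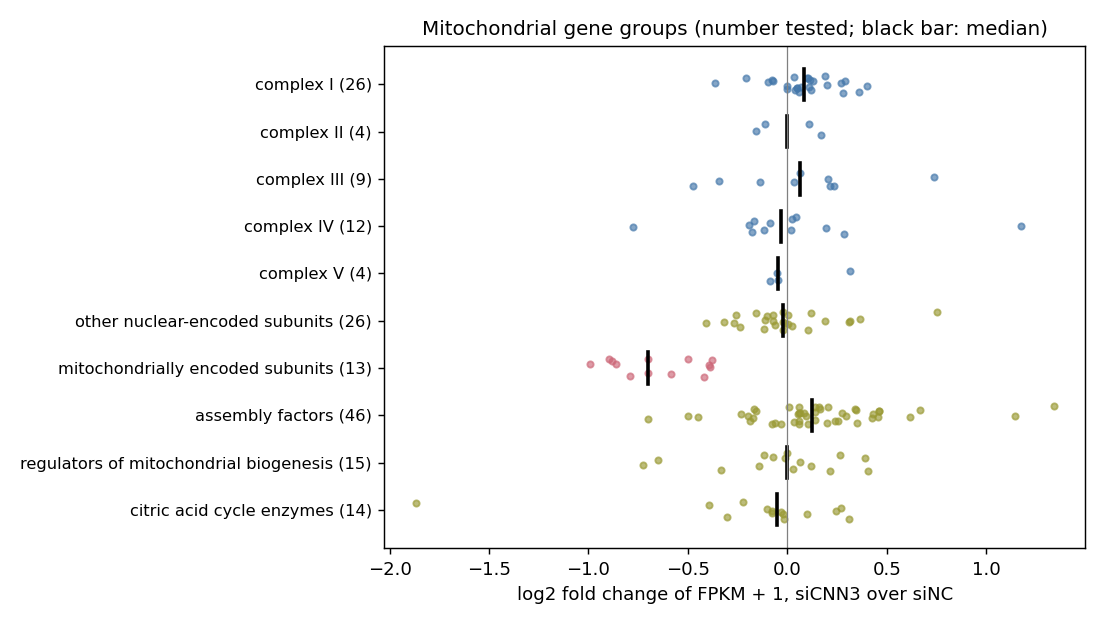
Log2 fold change of FPKM + 1 (siCNN3 over siNC, x axis) of each tested gene in 10 groups of mitochondrial genes, with the number tested in parentheses and bars for the median. The medians of the nuclear-encoded groups lie between -0.05 and 0.12, and that of the mitochondrially encoded subunits lies at -0.70.

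Markers of other cell types were read beside these values. Of 5 tested fibroblast markers 0 were called (2.06% of all genes) and 2 were lower at an unadjusted p under 0.05 (6.14% of all genes, limma, median log2 fold change -0.40, summed FPKM 1054 to 1445 in siNC and 697.9 to 859.7 in siCNN3). Of 8 blood and immune markers 3 had values, and Ptprc and Cd3e were not among them. Of the 3, 1 was called lower (0.336% of all genes, limma), the beta globin Hbb-bs (summed FPKM of the 3 genes 151.5 to 425.4 in siNC and 34.4 to 46.1 in siCNN3). The adipocyte marker Fabp4, the one of 4 with values, was called lower (0.336% of all genes, limma), at 8.09 to 10.9 FPKM in siNC and at 2.17 to 3.13 FPKM in siCNN3, whereas Adipoq, Plin1 and Cidec had none. Both lists had 0 called genes without siNC replicate 1 or 3 or siCNN3 replicate 1 or 2. The part of these markers in the values of the respiratory chain genes was not tested.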

How the data were processed

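FPKM values of 24023 Ensembl transcripts were deposited by the authors for 6 libraries. The submitters' processing notes name Bowtie 0.12.2 and the builds mm8 and mm10 without their roles, and the program behind the FPKM, its annotation and the strand setting are not given in the sources used here. Transcripts were assigned to genes by GENCODE vM21 (GRCm38), ignoring the version suffix, which left 74 out (0.159% to 0.220% of the FPKM). Gene sums with a mean of 0.5 FPKM or more entered limma 3.58.1 (R 4.3.3, mean-variance trend) as log2(FPKM + 1), with Benjamini-Hochberg adjustment over 11593 genes and a threshold of 0.05. An exact permutation test of 3 against 3 has a smallest p of 0.1. The fit was tested on simulated data: when 200 of 11593 genes differed by 2 (log2), 181 were called, 168 of them correctly, and with no difference 0 were called. The simulated noise was independent between genes and libraries, so it held no shift common to a library. The difference of 2 was larger than that of any member (-0.77 to 1.18), and calls at such smaller sizes were not tested. Depth is unknown, so no counting error is given.

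The members and gene lists were chosen with earlier results of these data known. Named members are the isoform pairs Cox6a1, Cox6a2, Cox7a1 and Cox7a2, in each complex the 3 with the largest fitted increase and the 3 with the largest decrease (all of complexes II and V), the highest and lowest by mean FPKM, and those with a failed transcript estimate (0 in 1 library, 10 FPKM or above in another of its group). From each list, genes past the threshold or the 2 with the largest change could be named, and not all were printed. Cox6c, Cox6b1, Cox7b, Cox7c, Uqcrb, Uqcr10, Ndufb8 and Ndufs3, and genes listed for their copies, fall outside this rule and were named after their values were seen. Copies were sought with blastn 2.17.0 among GENCODE transcripts, and promoter windows came from RefSeq. As alternatives, the pseudocount was 0.1, the filter was removed or set at 5 FPKM, libraries were scaled by median of ratios or by quantiles, the replicate number was a block, the trend was dropped, the highest transcript replaced the sum, failed estimates were left out, length and GC trends were removed (splines, 4 degrees of freedom), and each library was omitted. Figures used Python 3.11.15 and matplotlib 3.10.9.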

Additional observations from a re-analysis of the deposited data

How the results depend on the processing

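Against 200 genes called higher and 39 lower of all those tested, the replicate block gave 62 and 6 and the highest transcript 100 and 22. Median-of-ratios scaling gave 219 and 63, quantile normalization 199 and 92, and removal of the length and GC trends 204 and 93. Leaving out 1 library gave 16 to 443 genes higher and 4 to 159 lower, with the most without siCNN3 replicate 3 and the fewest without siNC replicate 3 (for those lower, also without siCNN3 replicate 2). For the 55 nuclear-encoded subunits the counts were 0 to 2 higher and 0 to 1 lower when 1 library was left out, and 0 under the other 10 alternatives. Their median log2 fold change was -0.056 with quantile normalization (-0.043 over all genes), against 0.05 (0.03 over all genes), and ran from -0.056 to 0.09 over the alternatives. The causes were not tested.

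The replicate numbers were not treated as pairs: the deviations of libraries with the same number correlated at -0.28, 0.31 and -0.02, and no library correlated best with its own number. With the block, 0 of the 55 genes were called. The isoform ratios were not recomputed under the filters or without a trend, which do not enter them, nor with the length and GC trends removed, and elsewhere ran from 1.07 to 3.54 (Cox6a2 to Cox6a1) and from -1.24 to -0.08 (Cox7a1 to Cox7a2). With 2 libraries against 3, the exact test cannot go below 0.2. The unknown depth limits what can be said of Cox6a2, Ppargc1a and other genes near 0.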
